A study of Mus musculus with 8 samples.

Results

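The genes described here encode the subunits of the transcription factor NF-kappaB and the proteins that hold it back or release it, measured by RNA sequencing in ageing mouse gastrocnemius, the large calf muscle. They were chosen by symbol, as 10 of the 49315 genes counted in each library: Nfkb1, Rel, Rela, Nfkbia and Nfkbie of the canonical arm, Nfkb2, Relb, Map3k14 and Traf3 of the noncanonical arm, and Bcl3, an atypical member of the inhibitor family. Muscles came from C57BL/6 mice at 4 ages, 3, 12, 24 and 30 months, with 2 libraries per age, no treatment and no genetic change given in the labels. Whether both libraries of an age stem from different animals is not in the labels, and p-values therefore reflect the spread between libraries, which may be technical. The family was chosen on differences between ages in these same counts, with the change of Nfkb2 known, so the values by age below describe the members and lend the family no support. The question the design poses is how levels at each later age differ from those at 3 months.

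NF-kappaB proteins bind DNA as dimers and rest in the cytoplasm until a signal frees them. In the canonical arm, inhibitors such as those made from Nfkbia and Nfkbie are degraded after phosphorylation, and dimers of the Rela, Rel and Nfkb1 products enter the nucleus. In the noncanonical arm, the kinase made from Map3k14, otherwise kept low by the Traf3 product, drives the processing of the Nfkb2 precursor, whose dimer with the Relb product then acts. Both arms are known in skeletal muscle, where they have been tied to wasting and to fibre metabolism, and several genes of the pathway are themselves targets of NF-kappaB.

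Promoter windows of the members show how often the sequence that NF-kappaB binds stands near these genes. RefSeq promoter sequences on GRCm38.p6 were at hand for 8 of the 10 members, as 10 windows of 300 bases, with 250 before and 50 after a transcription start. The kappaB consensus, a degenerate motif of NF-kappaB sites, was searched on both strands with overlapping matches allowed and was found in 6 of the 8, Rel, Nfkbia, Nfkbie, Nfkb2, Traf3 and Bcl3. Rela and Map3k14 had no match in this window. Across the table the consensus stood in 4.51% of 32851 windows and for 5.14% of 27025 genes. The 250 bases before the start are printed for the gene that leads the results below and for both inhibitors of the canonical arm, 5′ to 3′ on the strand of the gene, with matches to the consensus in capitals. They lie at chr19:46304487-46304736 on the plus strand for the first Nfkb2 start and chr19:46305680-46305929 on the plus strand for the last. The Nfkbie stretch is chr17:45555450-45555699 on the plus strand and the Nfkbia stretch is chr12:55492648-55492897 on the minus strand.
Nfkb2, first start: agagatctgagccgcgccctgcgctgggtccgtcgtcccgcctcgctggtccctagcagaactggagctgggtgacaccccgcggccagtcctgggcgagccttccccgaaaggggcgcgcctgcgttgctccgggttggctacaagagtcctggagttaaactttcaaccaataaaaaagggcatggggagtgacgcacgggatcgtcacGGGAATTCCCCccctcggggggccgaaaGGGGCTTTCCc
Nfkb2, last start: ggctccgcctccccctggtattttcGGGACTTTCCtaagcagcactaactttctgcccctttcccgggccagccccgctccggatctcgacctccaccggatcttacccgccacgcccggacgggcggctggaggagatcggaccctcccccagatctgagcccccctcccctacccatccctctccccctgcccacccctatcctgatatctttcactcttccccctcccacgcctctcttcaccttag
Nfkbie: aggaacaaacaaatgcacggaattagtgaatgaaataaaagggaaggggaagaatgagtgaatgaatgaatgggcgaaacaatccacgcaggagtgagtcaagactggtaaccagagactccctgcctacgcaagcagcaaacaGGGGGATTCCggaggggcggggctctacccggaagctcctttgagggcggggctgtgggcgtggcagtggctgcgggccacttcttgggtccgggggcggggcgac
Nfkbia: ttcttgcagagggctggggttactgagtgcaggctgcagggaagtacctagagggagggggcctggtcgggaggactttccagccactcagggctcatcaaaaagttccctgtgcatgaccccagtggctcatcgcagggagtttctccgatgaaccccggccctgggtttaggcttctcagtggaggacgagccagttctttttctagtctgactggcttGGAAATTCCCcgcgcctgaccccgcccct
The first Nfkb2 start was preceded by 2 separate stretches of matches, the nearer of which, GGGGCTTTCC, lay from 11 to 2 bases before the start. The window of the last start held GGGACTTTCC, and the window of the second start, which overlaps it, holds the same bases. This exact sequence stood in 0.155% of all windows, against 4.51% for the consensus. It was taken from the Nfkb2 window before it was counted, so its low share lends the site no weight. Nfkbia had its match 29 to 20 bases before the start, on the opposite strand, and Nfkbie had GGGGGATTCC starting 106 bases before it. These are matches of letters, and binding at them was not measured.

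Library totals were 42404254 to 59245029 counts, and at 0 counts a level of up to 0.0506 to 0.0707 CPM, or 3 counts of the total, could not be detected, by counting error only. CPM are counts relative to the library size after TMM scaling in edgeR, and RPKM are CPM per kilobase of exon. Skeletal muscle fibre markers such as Ckm and Acta1 summed to 228000 to 384000 CPM, so the labelled tissue has its defining markers in every library. The libraries fell into a set of 5 with transcripts of kidney genes and a set of 3 with a sum of 0.682 to 0.741 CPM over 9 such genes. Both libraries of 3 months are in the set with these transcripts, at 51.6 and 16.6 CPM, and each later age has 1 library in each set, those with kidney transcripts at 5.61, 4.44 and 3.76 CPM at 12, 24 and 30 months. Values within the set, or with the set as a term, therefore do not match the kidney content: with the set as a term the 9 genes still had a median log2 fold change of -3.16 at 30 against 3 months, 7 of them at an unadjusted p under 0.05 and 0 called (edgeR). The set and the age can be told apart only in part, and values within the set with kidney transcripts, or with the set as a term of the fit, are given where they bear on a gene. In bulk muscle, more cells of a type and more RNA per cell cannot be told apart.

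Per length of transcript, Nfkbia was the most abundant of the 10 genes and Bcl3 and Nfkbie the least. Nfkbia, which encodes the main inhibitor of the canonical dimers, was at 12.5 to 16.2 RPKM over the 8 libraries with a median of 13.8, above every value of any other member. Below it, by median, came Rela at 4.59, Nfkb2 at 4.51, Traf3 at 3.44, Nfkb1 at 2.78 and Relb at 2.77 RPKM, and each overlapped its neighbours in this order. Map3k14 at 1.28, Rel at 0.988, Nfkbie at 0.454 and Bcl3 at 0.437 RPKM followed, Map3k14 below every value of Relb and each of the others overlapping its neighbours. The order was not the same at every age. Nfkb2 was at 6.91 ± 0.81 RPKM at 30 months, above Rela at 5.18 ± 0.91 in both libraries, and at 3 months Nfkb2 was at 2.64 ± 0.14 RPKM, below Rela at 3.87 ± 0.30 in both (SD, n = 2 per age).

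**Figure D1:**
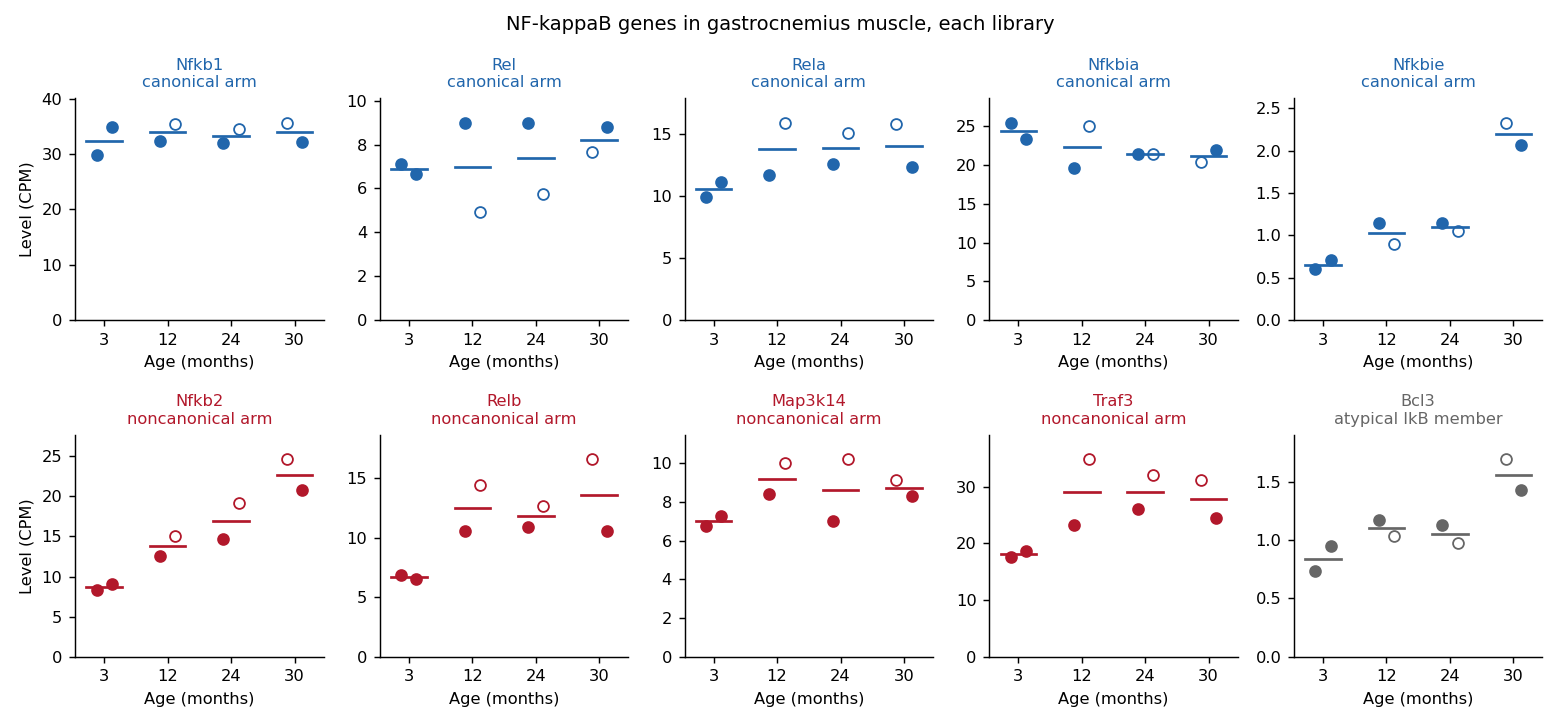
Level of each gene in CPM (vertical axis, from 0) against age in months, with 1 point per library and a bar at the mean of the 2 libraries; filled points are libraries with kidney transcripts and open points libraries without. The mean of Nfkb2 lies higher at each successive age, with 20.8 and 24.6 CPM at 30 months, and Nfkb1 stays between 29.8 and 35.7 CPM.

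Nfkb2, which encodes the p100 precursor of the p52 subunit, rose with age. The gene (ENSMUSG00000025225) lies at chromosome 19, 46304737 to 46312090, on the plus strand of GRCm38. It was at 8.38 and 9.01 CPM in the libraries of 3 months, 12.6 and 15.0 in those of 12 months, 14.7 and 19.2 in those of 24 months, and 24.6 and 20.8 in those of 30 months. Every later library lay above both of 3 months, both of 30 months lay above all the others, and 12 and 24 months overlapped. The deposited counts behind these levels were 1121 and 1109 at 30 months, against 388 and 486 at 3 months. At 30 against 3 months the log2 fold change was 1.39 (SE 0.18, adjusted p = 0.0302 over all 19571 genes tested, edgeR), a 2.61-fold difference. Nfkb2 was the only 1 of the 10 genes called in this comparison, where 0.148% of all genes tested were called. Nothing about the family is read from that share, since the choice of the members used this comparison.

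At the earlier ages the estimates for Nfkb2 were smaller. Its log2 fold change was 0.67 (SE 0.18, edgeR adjusted p = 0.667) at 12 months and 0.96 (SE 0.18, adjusted p = 0.195) at 24 months, and neither passed the threshold of 0.05. At 30 against 12 months it was 0.72 (SE 0.18, adjusted p = 0.551, edgeR). As a slope on age in months, the increase of Nfkb2 was 0.047 log2 units a month (SE 0.006, edgeR adjusted p = 0.0156), again 1 of the 10 genes called, beside 0.133% of all genes. The call at 30 against 3 months did not hold without replicate 1 of 30 months (log2 fold change 1.26), without replicate 1 of 3 months (1.33) or without replicate 2 of 3 months (1.44). Within the set with kidney transcripts the 30 month library lay 1.26 above the mean of both 3 month libraries in log2 CPM. With the set as a term the log2 fold change was 1.23 (SE 0.14, adjusted p = 0.00128, edgeR) at 30 months and 0.80 (SE 0.14, adjusted p = 0.0359) at 24 months, in a fit that called 2.13% and 0.363% of all genes and 3 and 1 of the members. In that fit Nfkb2 was also called at 30 against 12 months (0.281% of all genes), across the ages (1.04%) and for the slope (1.51%), with Nfkbie in the last 2.

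In the annotation Nfkb2 shares 4 of its 3289 exon bases with Psd, on the opposite strand. Psd was at 2.44 and 1.71 CPM at 30 months, against 0.843 and 0.556 CPM at 3 months, below Nfkb2 in every library. The sources used here do not say whether reads were counted by strand.

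Relb (chromosome 7, 19606217 to 19629438, minus strand), which encodes the usual dimer partner of p52, had higher values at each later age than at 3 months, though no comparison passed in the fit by age alone. It was at 6.89 and 6.56 CPM in the libraries of 3 months, 10.6 and 14.4 in those of 12 months, 10.9 and 12.7 in those of 24 months, and 16.6 and 10.6 in those of 30 months. All 6 later libraries lay above both of 3 months, and the later ages overlapped each other. The log2 fold change against 3 months was 0.89 (SE 0.24, adjusted p = 0.644) at 12 months, 0.81 (SE 0.24, adjusted p = 0.467) at 24 months and 1.01 (SE 0.24, adjusted p = 0.208, edgeR) at 30 months, and none passed. At each later age the library without kidney transcripts was the higher one, by 0.44, 0.22 and 0.65 in log2 CPM at 12, 24 and 30 months. Within the set with kidney transcripts the 30 month library lay 0.65 above the mean of both 3 month libraries. With the set as a term Relb passed at 30 against 3 months, at 0.77 on the log2 scale (SE 0.16, adjusted p = 0.0328, edgeR). Without replicate 1 of 30 months the log2 fold change by age alone was 0.66.

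Traf3 (chromosome 12, 111166370 to 111267153, plus strand), which encodes the adaptor that marks the noncanonical kinase for degradation, likewise had its lowest values at 3 months. It was at 17.6 and 18.7 CPM in the libraries of 3 months, 23.2 and 34.8 in those of 12 months, 26.1 and 32.0 in those of 24 months, and 31.1 and 24.5 in those of 30 months. No later library reached down to either of 3 months, and the later ages overlapped. The log2 fold change was 0.68 (SE 0.21) at 12 months, 0.68 (SE 0.21) at 24 months and 0.62 (SE 0.21, adjusted p = 0.443, edgeR) at 30 months, none of which passed. Map3k14 (chromosome 11, 103219762 to 103267472, minus strand), which encodes NIK, the kinase that starts the noncanonical arm, was at 6.78 and 7.29 CPM in the libraries of 3 months, 8.41 and 10 in those of 12 months, 7.01 and 10.2 in those of 24 months, and 9.12 and 8.31 in those of 30 months. Of the libraries of 24 months 1 lay between those of 3 months, and the log2 fold change at 30 months was 0.31 (SE 0.20, adjusted p = 0.753, edgeR). Per length, the ratio of Map3k14 to Traf3 was 0.302 to 0.407 in the 6 later libraries and 0.433 and 0.437 at 3 months. Of the exon bases of Map3k14, 135 of 6550 are shared with 1700028N14Rik, a gene on the same strand at 0.204 to 0.460 CPM.

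Nfkbie (chromosome 17, 45555716 to 45563169, plus strand), which encodes the inhibitor IkB epsilon, had the largest fold of the members at 30 months from one of the lowest levels. It was at 0.605 and 0.705 CPM in the libraries of 3 months, 1.15 and 0.897 in those of 12 months, 1.15 and 1.05 in those of 24 months, and 2.33 and 2.07 in those of 30 months. Both libraries of 30 months lay above every other, and those of 12 and 24 months overlapped each other above both of 3 months. The counts were 106 and 110 at 30 months, against 28 and 38 at 3 months. The log2 fold change at 30 against 3 months was 1.74 (SE 0.27, adjusted p = 0.0567, edgeR), which missed the threshold. It was 0.64 (SE 0.28) at 12 months and 0.74 (SE 0.27) at 24 months, and at 30 against 12 months it was 1.10 (SE 0.26, adjusted p = 0.537, edgeR). Within the set with kidney transcripts the difference of 30 from 3 months was 1.61 in log2 CPM, and with the set as a term it was 1.78 (SE 0.29, adjusted p = 0.00986, edgeR).

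Nfkbia (chromosome 12, 55489411 to 55492647, minus strand) was at 25.5 and 23.4 CPM in the libraries of 3 months, 19.7 and 25.0 in those of 12 months, 21.4 and 21.5 in those of 24 months, and 20.4 and 22 in those of 30 months. Both libraries of 24 and of 30 months lay below both of 3 months, by a narrow margin. Its log2 fold change at 30 months was -0.20 (SE 0.15, adjusted p = 0.793, edgeR), which did not pass, and it was the only member with a negative estimate at 30 months.

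The 3 subunit genes of the canonical arm had log2 fold changes of at most 0.42 at 30 months, and none passed. Nfkb1 (chromosome 3, 135584655 to 135691547, minus strand), which encodes the p105 precursor of the p50 subunit, was at 29.8 and 34.9 CPM in the libraries of 3 months, 32.4 and 35.5 in those of 12 months, 32.1 and 34.6 in those of 24 months, and 35.7 and 32.2 in those of 30 months. All 4 ages overlapped, and the log2 fold change at 30 months was 0.07 (SE 0.14, edgeR adjusted p = 0.942). Rela (chromosome 19, 5637483 to 5648130, plus strand), which encodes the p65 subunit with its activation domain, was at 9.94 and 11.1 CPM in the libraries of 3 months, 11.7 and 15.9 in those of 12 months, 12.6 and 15.1 in those of 24 months, and 15.8 and 12.3 in those of 30 months. Each later library of Rela lay above both of 3 months, yet the log2 fold change of 0.42 (SE 0.20, adjusted p = 0.620, edgeR) at 30 months did not pass. Rel (chromosome 11, 23736847 to 23770970, minus strand), which encodes c-Rel, a subunit best known in lymphocytes, was at 7.11 and 6.66 CPM in the libraries of 3 months, 9 and 4.91 in those of 12 months, 9 and 5.75 in those of 24 months, and 7.65 and 8.80 in those of 30 months. Its 2 libraries of 12 and of 24 months stood on either side of the 3 month values, and its log2 fold change at 30 months was 0.26 (SE 0.30, edgeR adjusted p = 0.883). With the set as a term it was 0.54 (SE 0.19, edgeR adjusted p = 0.193), which did not pass either, and within the set with kidney transcripts the difference was 0.35 in log2 CPM.

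Bcl3 (chromosome 7, 19808462 to 19822770, minus strand), which encodes a nuclear protein of the inhibitor family that binds p50 and p52 dimers, was at 0.735 and 0.946 CPM in the libraries of 3 months, 1.17 and 1.03 in those of 12 months, 1.13 and 0.974 in those of 24 months, and 1.69 and 1.43 in those of 30 months. Every later library was above both of 3 months, and both of 30 months were above the rest. The log2 fold change at 30 months was 0.89 (SE 0.27, adjusted p = 0.350, edgeR) and did not pass. Bcl3 shares 161 of 2475 exon bases with Gm16175, which was at 0 to 0.0383 CPM.

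**Figure D2:**
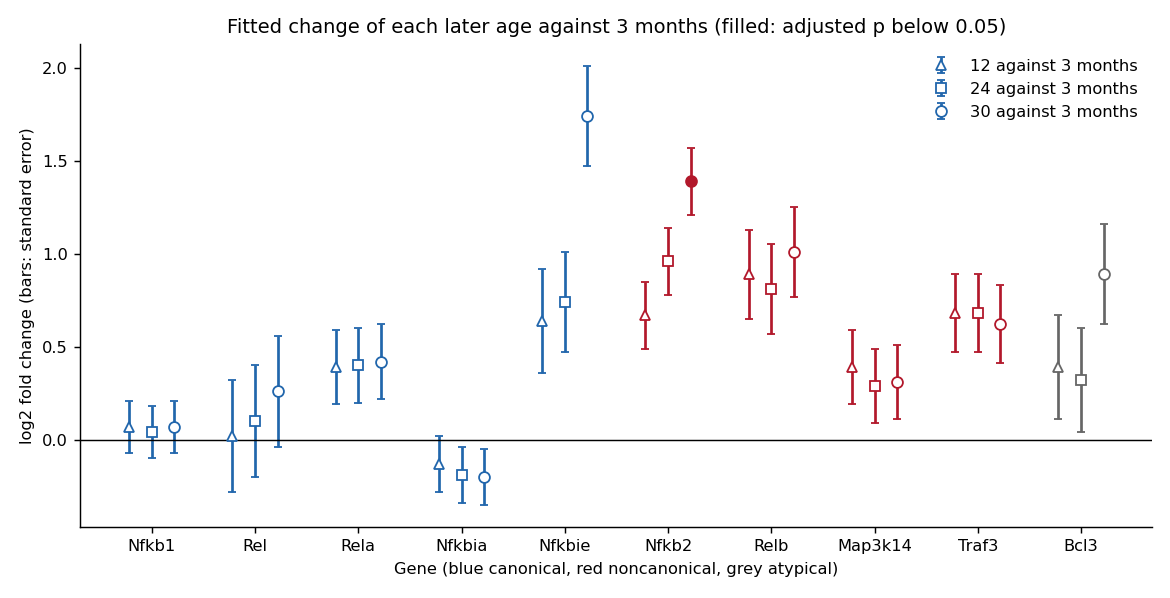
Fitted log2 fold change (vertical axis) of 12, 24 and 30 months against 3 months for each gene, with bars for the standard error; a filled symbol has an adjusted p below 0.05 and an open one does not. The 3 comparisons share the libraries of 3 months. Only Nfkb2 at 30 months, at 1.39, is filled.

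Counted together, both libraries of 30 months lay above both of 3 months for 8 of the 10 members, where 21.1% of all genes tested did so, and below for 1, Nfkbia, where 20.2% did. At 24 months 6 members lay above (20% of all genes) and Nfkbia below (19.4%), and at 12 months 7 lay above (19.3%) and 0 below (19.2%). All 6 later libraries were above both of 3 months for 6 members, Rela, Nfkbie, Nfkb2, Relb, Traf3 and Bcl3, where 6.86% of all genes were, and below for 0, where 6.09% were. These comparisons share the 3 month libraries. The median log2 fold change at 30 against 3 months was 0.52 over the 10 members, 9 of them positive, and 0.01 over all genes tested. It was 0.26 over the 5 canonical genes and 0.82 over the 4 noncanonical genes at 30 months. The same lists had 0.10 and 0.75 at 24 months, then 0.07 and 0.67 at 12 months. These medians are from the fit by age alone. Adding the library set as a term brought the arms closer together. The canonical medians were then 0.20, 0.22 and 0.23 for the later ages in ascending order. Those of the noncanonical genes were 0.48, 0.53 and 0.58, still the higher of the arms each time.

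By adjusted p, edgeR called 0 of the members at 24 against 3 months (0.102% of all genes), with 4 at an unadjusted p under 0.05, beside 1480 of all 19571 genes tested. DESeq2 called 1 member there, Nfkb2, beside 0.637% of all genes, and limma-voom 0. At 12 against 3 months edgeR called 0 (0.0409% of all genes), with 4 at an unadjusted p under 0.05 (1077 of all genes) and 0 called by either of the other tools. At 30 against 12 months the count was 0 (0.00511% of all genes), with 2 at an unadjusted p under 0.05 (1019 of all genes) and 0 by the others. At 30 against 24 months it was 0 (0% of all genes), with 2 at an unadjusted p under 0.05 (606 of all genes), and at 24 against 12 months 0 (0%), with 0 at an unadjusted p under 0.05 (600 of all genes). The other tools called 0 members in both of these. Across the 4 ages in a single test edgeR and limma-voom called 0 members (0.0613% of all genes in edgeR), with 4 at an unadjusted p under 0.05 in edgeR (1108 of all genes), and DESeq2 called 2, Nfkbie and Nfkb2, beside 1.03% of all genes.

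Within each library, ratios of RPKM set the noncanonical genes against their canonical counterparts without the scaling between libraries. Nfkb2 over Nfkb1 was 1.03 and 0.947 in the libraries of 3 months, 1.42 and 1.55 in those of 12 months, 1.67 and 2.03 in those of 24 months, and 2.53 and 2.38 in those of 30 months, with no overlap between any of the ages. Relb over Rela was 0.485 and 0.414 in the libraries of 3 months, 0.630 and 0.633 in those of 12 months, 0.606 and 0.588 in those of 24 months, and 0.734 and 0.602 in those of 30 months, so the later ages were above 3 months and, but for 12 against 24 months, overlapped each other. Nfkbie over Nfkbia was 0.0677 ± 0.0092 at 30 months and 0.0175 ± 0.0029 at 3 months (SD, n = 2 each). Nfkb2 over Relb, the partners of the noncanonical dimer, was 1.75 and 2.32 at 30 months and 1.44 and 1.62 at 3 months. In between it was 1.41 and 1.24 at 12 months, below both libraries of 3 months. At 24 months it was 1.58 and 1.78, which overlapped 3 months. Summed over its 4 genes the noncanonical arm was at 7.92 ± 0.24, 12.8 ± 2.5, 13.4 ± 2.2 and 15.5 ± 2.6 RPKM at 3, 12, 24 and 30 months. The 5 canonical genes, of which Nfkbia makes up the most, summed to 23.2 ± 0.34, 23.4 ± 3.2, 22.9 ± 0.49 and 23.4 ± 0.40 RPKM (SD, n = 2 per age). The libraries of 3 months were below all others in the noncanonical sum, and the canonical sums of the ages overlapped. The ratios and sums follow from the members' own values and were given no test.

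**Figure D3:**
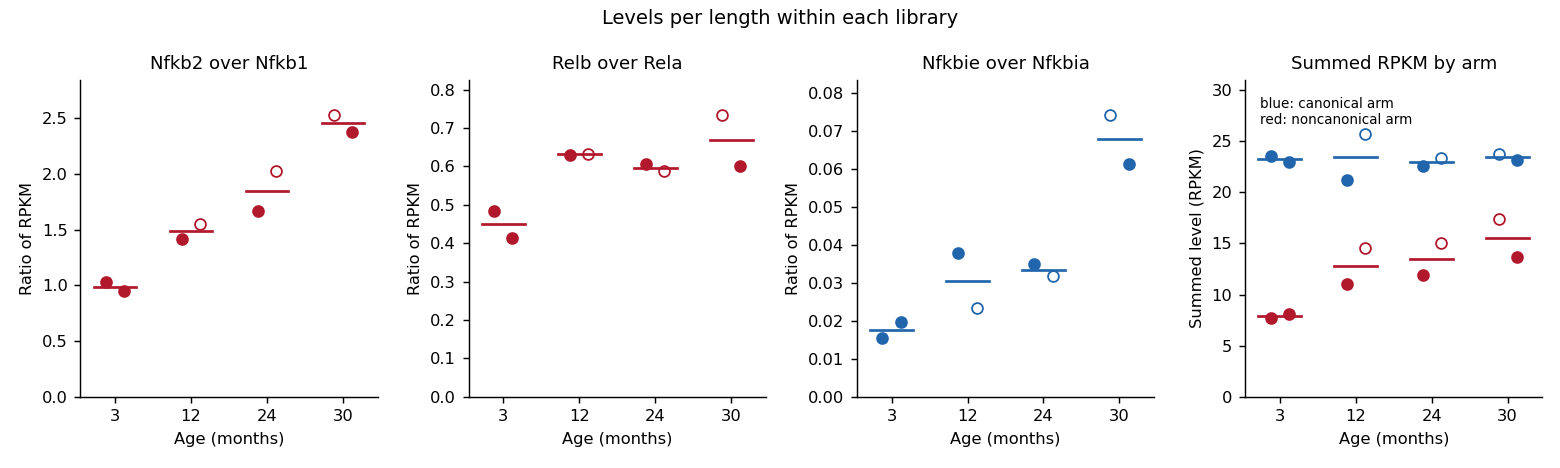
Ratios of RPKM within each library (3 left panels, vertical axis from 0) and summed RPKM of each arm (right panel) against age in months, with filled points for libraries with kidney transcripts, open points for those without, and a bar at the mean of the 2 libraries. Nfkb2 over Nfkb1 is near 1 at 3 months (0.947 and 1.03) and at 2.38 and 2.53 at 30 months.

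The 2 libraries of each later age differed for several members in the same direction at all 3 ages. In log2 CPM, 6 members were higher in the library without kidney transcripts than in the one with them at 12, 24 and 30 months (21.2% of all genes were), namely Nfkb1, Rela, Nfkb2, Relb, Map3k14 and Traf3. Rel was lower in it each time, by 0.87, 0.64 and 0.20 at 12, 24 and 30 months, and was the only 1 of the 10 (22.2% of all genes). Traf3 was higher by 0.58, 0.29 and 0.34, Rela by 0.43, 0.26 and 0.36, and Nfkb2 by 0.25, 0.38 and 0.24 at these ages. For Nfkb2 these differences are smaller than its difference between 30 and 3 months within the set with kidney transcripts, 1.26. For Rela, Traf3 and Map3k14 the within-set difference of 30 from 3 months, 0.23, 0.43 and 0.24, was smaller than the largest of their differences between the sets. That of Relb, 0.65, equalled its largest difference between the sets to 2 decimals, and Nfkb1, up to 0.15 higher in the library without kidney transcripts, had a within-set difference of 0 to 2 decimals. Each within-set difference sets 1 library against the mean of 2, at kidney sums of 3.76 CPM against 51.6 and 16.6 CPM. These sizes therefore cannot separate set from age, and the part of either was not tested.

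**Figure D4:**
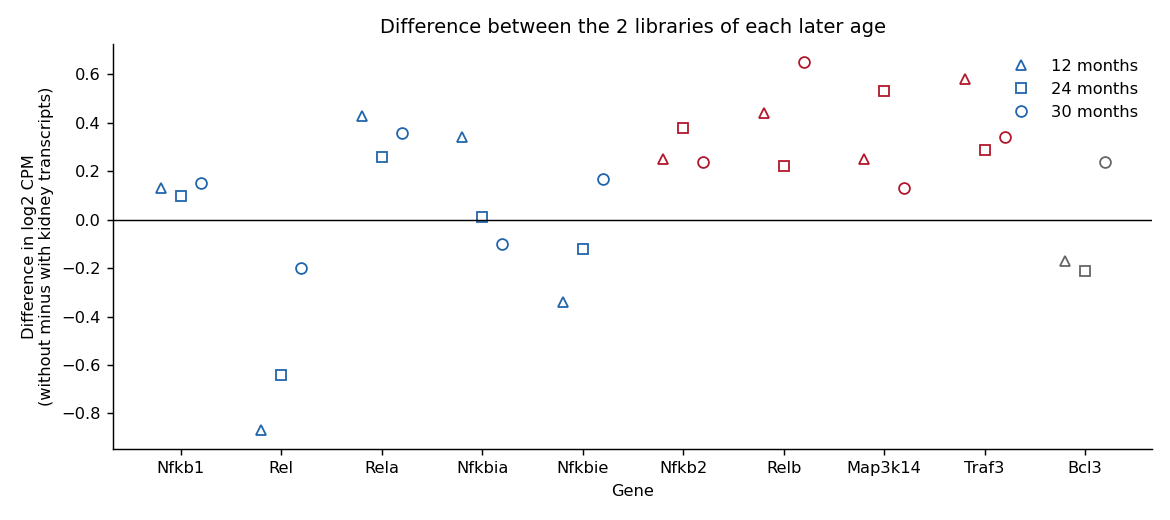
Difference in log2 CPM (vertical axis) between the library without kidney transcripts and the library with them at 12, 24 and 30 months, 1 symbol per age, for each gene (blue canonical, red noncanonical, grey Bcl3). The 4 noncanonical genes lie above 0 at each age, up to 0.65 for Relb, and Rel lies below 0, down to -0.87.

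Markers of other cell types differed between ages and between single libraries. Counts below of markers higher in both 30 month libraries than in both of 3 months stand beside 21.1% of all genes tested. The summed level of 12 macrophage and monocyte markers was 420 CPM in replicate 2 of 30 months, 230 CPM in replicate 1 of that age, against 214 and 245 CPM at 3 months, and 5 of the 12 genes were higher in both 30 month libraries than in both of 3 months. At 30 against 3 months edgeR called 0 of these 12 genes by age alone (median log2 fold change 0.55, 2 at an unadjusted p under 0.05) and 7 with the set as a term (median 0.85), the fit that also called Nfkbie, Nfkb2 and Relb and 2.13% of all genes. The 8 B and plasma cell markers summed to 115 and 79.1 CPM at 30 months, against 45.5 and 51.1 CPM at 3 months, with 6 of 8 genes higher in both. Most of that sum is Ighm, while Ms4a1, a defining marker of B cells, was at 0.0864 to 0.307 CPM over the libraries. Of 9 T and NK cell markers 4 were tested. The 9 summed to 2.31 and 2.35 CPM at 30 months, against 1.73 and 1.97 CPM at 3 months, with 4 of 9 higher in both. Among those higher was Klrb1c, at 0.0439 and 0.0188 CPM at 30 months, against 0 and 0.0185 CPM at 3 months. Such values lie below the level that a count of 0 allows. The 7 neutrophil and mast cell markers summed to 15.8 and 19.1 CPM at 30 months, against 11.3 and 11 CPM at 3 months, with 3 of 7. None of these genes was at 0 in all libraries. The 6 fibroblast markers summed to 660 and 791 CPM at 30 months, against 1250 and 1350 CPM at 3 months, with 0 of 6 called and a median log2 fold change of -0.28 (edgeR, 1 at an unadjusted p under 0.05). In that list 2 of the 6 genes were positive, and the fall of the sum is mostly that of its collagen genes. Col1a1 was at 126 and 138 CPM at 30 months, against 447 and 505 CPM at 3 months. Col3a1 was at 117 and 201 CPM, against 301 and 357 CPM at 3 months. Dcn was at 316 and 318 CPM, against 372 and 366 CPM at 3 months. The 6 endothelial markers summed to 182 and 255 CPM at 30 months, against 257 and 244 CPM at 3 months. The 12 genes of the response to denervation, among them Chrna1, Runx1 and Gadd45a, summed to 277 and 260 CPM at 30 months, against 146 and 171 CPM at 3 months, with 9 of 12 higher in both. The largest parts of that sum were Hdac4, at 110 and 77.5 CPM at 30 months, and Musk, at 83.2 and 56.7 CPM. Of the 12 genes, edgeR called 1 by age alone (0.148% of all genes, median log2 fold change 1.31). With the set as a term it called 7 (2.13% of all genes, median 1.37). Nfkb2 was lower in the 30 month library with the most macrophage transcripts, at 20.8 CPM, than in the other, at 24.6 CPM. The former of these libraries has kidney transcripts and the latter does not. At 12 and 24 months too the library with kidney transcripts had the higher macrophage sum and the lower Nfkb2. Those sums were 246 against 160 CPM at 12 months and 231 against 145 CPM at 24 months. The contrast is thus mixed with the library set. The part of these cell types and of denervation in the levels of the 10 genes was not tested.

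Around the 10 genes, 107 other genes of the pathway were listed in 7 groups by role, and 94 of them were tested. At 30 against 3 months 1 was called, Eda2r, beside 0.148% of all genes, and 67 were positive with a median log2 fold change of 0.20. At 24 and at 12 months against 3 months edgeR called 0 of the 94, with 8 at 24 months and 4 at 12 months under an unadjusted p of 0.05, where 1480 and 1077 of all 19571 genes were. At 24 months 62 of the 94 were positive with a median of 0.08, and at 12 months 45, with a median of -0.04. DESeq2 called 1 at 24 months, Eda2r, beside 0.637% of all genes, and 0 at 12 months, and limma-voom 0 at both. Eda2r, which encodes the receptor for ectodysplasin A2, was at 21.5 and 19.2 CPM in the libraries of 3 months, 37.9 and 27.0 in those of 12 months, 51.9 and 67.4 in those of 24 months, and 73.9 and 54.0 in those of 30 months. All later libraries were above both of 3 months, and 24 and 30 months overlapped. The log2 fold change at 30 months was 1.65 (SE 0.23, adjusted p = 0.0387, edgeR), a call that did not hold without either library of 3 months, either of 24 months or replicate 1 of 30 months. In its list, the ligands and receptors of the noncanonical arm, the median at 30 months was 0.33, 9 of 10 tested genes were positive and only Eda2r was called. The same list had a median of -0.12 with 4 of 10 positive at 24 months and of 0.02 with 5 of 10 positive at 12 months, with 0 called at either age.

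Tnfrsf12a, the receptor of TWEAK, differed between the sets of libraries. It was at 15.8 and 13.3 CPM in the libraries of 3 months, 19.2 and 6.28 in those of 12 months, 16.1 and 7.40 in those of 24 months, and 11.8 and 25.1 in those of 30 months. At each later age the lower value belongs to the library without kidney transcripts, and the fold change at 30 months was 0.34 on the log2 scale (SE 0.59, edgeR adjusted p = 0.931), or 0.87 (SE 0.17, adjusted p = 0.0260) with the set as a term. Ltb, which encodes lymphotoxin beta, and Tnfsf13b, which encodes the B cell survival factor BAFF, had log2 fold changes of 1.90 (SE 0.82) and 0.68 (SE 0.27) and did not pass. Ltb was at 0.0584 to 0.373 CPM over all libraries, near the limit that a count of 0 allows.

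The IkB kinase complex, which phosphorylates the inhibitors, had log2 fold changes close to 0 at 30 against 3 months. They were 0.20 (SE 0.14) for Ikbkb, -0.16 (SE 0.14) for Chuk, the subunit that the noncanonical arm uses, and 0.08 (SE 0.13) for Ikbkg, the regulatory subunit. Of the 25 adaptors and upstream kinases 13 were positive and 0 were called, with a median of 0.12, and the lowest p belonged to Birc3 at 0.41 (SE 0.16), Rnf31 at 0.55 (SE 0.22) and Rbck1 at 0.26 (SE 0.14). Birc3 is part of the complex that degrades NIK, and Rnf31 and Rbck1 encode subunits of the linear ubiquitin ligase. Of the 12 negative feedback genes 8 were positive and 0 called, led by the deubiquitinase genes Cyld at 0.41 (SE 0.14) and Tnfaip3 at 0.53 (SE 0.24) and the ribonuclease gene Zc3h12a at 0.48 (SE 0.20). The other listed genes of the inhibitor family were Nfkbib at 0.56 (SE 0.19), Nfkbid at 0.69 (SE 0.59) and Nfkbiz at 0.07 (SE 0.23), with 0 of 3 called.

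Ligands and receptors of the canonical arm had 0 of 16 tested genes called at 30 months, 11 of them positive and a median of 0.25. Their median was -0.19 at 24 months (7 positive) and -0.24 at 12 months (6 positive). Tlr2, a receptor for bacterial lipoproteins, was at 2.17 and 2.61 CPM at 30 months, against 1.51 and 1.13 CPM at 3 months, 0.86 apart on the log2 scale (SE 0.25, adjusted p = 0.322, edgeR). Tnf had 2.13 (SE 0.79) and Il1b 0.87 (SE 0.48), from levels of at most 0.505 CPM in any library. Among 25 tested target genes, 21 were positive at 30 months, the median was 0.39 and 0 were called, while at 24 months 20 were positive (median 0.12) and at 12 months 9 (median -0.08). The lowest p belonged to chemokine genes. Ccl7 was at 0.835 and 0.996 CPM at 30 months, against 0.173 and 0.241 CPM at 3 months, 2.12 apart on the log2 scale (SE 0.39, adjusted p = 0.106, edgeR). Cxcl10 was at 2.46 and 0.940 CPM at 30 months, against 0.259 and 0.389 CPM at 3 months (log2 fold change 2.36, SE 0.52, adjusted p = 0.189, edgeR). Cxcl13 was at 7.42 CPM in replicate 2 and 1.10 CPM in replicate 1 of 30 months, against 0.281 and 0.556 CPM at 3 months. Its high value lay in replicate 2, a library with kidney transcripts and with the highest macrophage sum, and a link to either was not tested. With the set as a term 5 of the 94 genes were called at 30 months, each of them higher, Tnfrsf12a, Eda2r, Ccl2, Ccl7 and Cxcl10, where that fit called 2.13% of all genes.

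**Figure D5:**
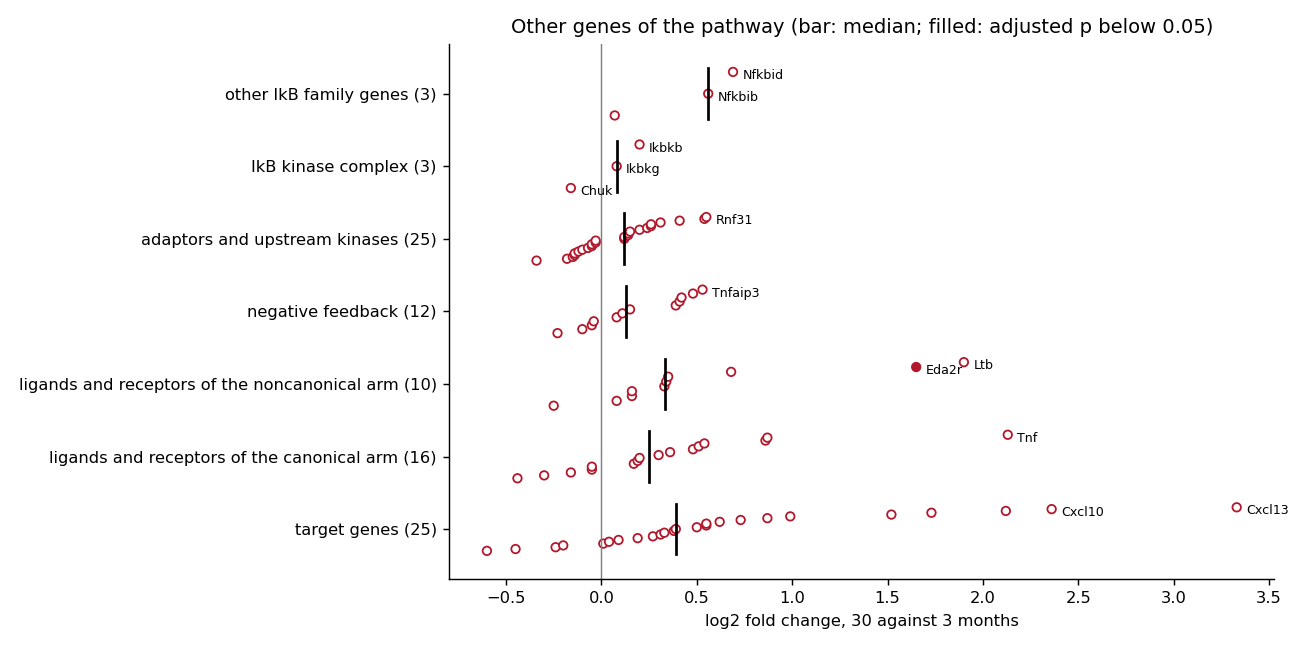
Fitted log2 fold change of 30 against 3 months (horizontal axis) for the 94 tested genes of the pathway outside the 10, by list, with the number tested in brackets, a point per gene in order of its value and a bar at the list's median. Only Eda2r, at 1.65, is filled for an adjusted p below 0.05, and the points farthest right are the low-level genes Cxcl13, Cxcl10 and Tnf.

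Among 9666 genes with an average log2 CPM of at least 2, the pattern of Nfkb2 over the 8 libraries was most like those of Tln1, which encodes the adhesion protein talin (Pearson r of log2 CPM 0.988), Map1b (0.982), Cpne2 (0.977), Trp63 (0.976) and Trafd1 (0.970). The libraries share their age, set and depth, so these values are a description. Tln1 was at 195 and 183 CPM at 30 months, against 130 and 141 CPM at 3 months, a smaller fold than that of Nfkb2, and Cpne2 was at 32.9 and 30.9 CPM at 30 months, against 5.55 and 6.08 CPM at 3 months, a larger one. Of the other members, the closest to Nfkb2 were Nfkbie (r = 0.894) and Relb (0.870), values that would rank 54 and 95 among the genes compared. Nfkb1 (0.467), Rel (0.073) and Nfkbia (-0.552) were the farthest off. Relb was most like Oplah (0.984), Flot1 (0.977), Ppargc1b (0.974), Ncs1 (0.973) and Mief2 (0.972). Among the members it was closest to Traf3 (0.944, rank 29) and Rela (0.927, rank 61).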

How the data were processed

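Gastrocnemius RNA of C57BL/6 mice, isolated with Trizol, was turned into 8 NEBNext Ultra libraries, per the labels' protocols. The authors deposited raw counts for each Ensembl gene, beside its exon length in bases. The submitters' processing notes name Trimmomatic 0.36, STAR 2.5.2b, Subread 1.5.2 and featureCounts, and as builds GRCm38 and mm10. None of the sources used here states which annotation release was used, whether strand counted or how multiply mapped reads were handled. Gene symbols came from GENCODE M21, which matched 49056 of 49315 identifiers.

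Counts were fitted in R 4.3.3 with edgeR 4.0.16 over all genes kept by filterByExpr (19571, all 10 members among them), with TMM scaling, age as 4 levels over the 8 libraries (4 residual degrees of freedom) and a robust quasi-likelihood test. A separate fit had age in months as a slope. Calls have a Benjamini-Hochberg adjusted p below 0.05 over all genes tested. The SE of a log2 fold change was obtained by dividing it by the root of its F statistic. RPKM divide the scaled counts by the deposited exon length. Replicates of an age differed beyond sampling noise (chi-square per degree of freedom 44.1 to 109), and each was kept as a library of its own. This value cannot show whether they stem from different animals.

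The members, the gene lists, the arms, the alternatives and the division of the libraries by a kidney marker sum of 1 CPM were chosen with earlier results of these data known. Named were all members, every list gene called against 3 months, up to 3 genes per list with the lowest p for 30 against 3 months, and the 5 genes most like Nfkb2 and Relb by Pearson r of log2 CPM (prior count 2). Tnfrsf12a, Ccl2, Ms4a1, Ighm, Col1a1, Col3a1 and Dcn, and the denervation and muscle fibre genes given as examples, were named after their values were seen. Ccl19 and Ccl21a have more than 1 entry, and the one with the highest total was used. Schwann cell, adipocyte and satellite cell markers summed to 33.0 to 117, 44.8 to 111 and 15.1 to 30.7 CPM over the libraries. In each list 0 genes were higher in both 30 month libraries than in both of 3 months, where 21.1% of all genes tested were. The alternatives tried were scaling by RLE or by library totals, dropping the low count filter or tightening it (1 CPM in 2 libraries, average log2 CPM of 1), limma-voom from limma 3.58.1 or DESeq2 1.42.0 as the test, fits to only the 4 libraries compared, a replicate block, the library set as a term (3 residual degrees of freedom) and each library left out. The procedure was tested on simulated counts.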

Additional observations from a re-analysis of the deposited data

How the results depend on the processing

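The count of NF-kappaB genes called at 30 against 3 months, 1 in the reported fit, was 3 without a low count filter, 3 with DESeq2 and 3 with the library set as a term, in each case Nfkbie, Nfkb2 and Relb, where these fits called 1.12%, 1.04% and 2.13% of all genes, and 0 to 1 when a library was left out. At 24 against 3 months, in place of 0, it was 2 without a filter (0.693% of all genes), 1 with DESeq2 (0.637%) and 1 with the set as a term (0.363%). At 12 against 3 months it was 1 without a filter (0.399%), and at 30 against 12 months 1 without a filter (0.414%) and 1 with the set (0.281%). Across the 4 ages it was 3 without a filter (1.4%), 2 with DESeq2 (1.03%) and 2 with the set (1.04%). For the slope, in place of 1, it was 2 without a filter (0.318%), 2 with DESeq2 (1.39%), 2 with the set (1.51%) and 0 to 1 with a library left out, with 0 without replicate 1 of 30 months or either replicate of 3 months. RLE size factors, library totals and limma-voom gave the reported counts of members in each comparison.

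Of the other pathway genes at 30 against 3 months, the reported fit called 1 of 94 tested, beside 0.148% of all genes. In its place, 4 were called without a filter (1.12% of all genes) and 2 with DESeq2 (1.04%), where 106 were tested. With the stricter filter 0 of 67 tested were called (0.076%), and with the set as a term 5 of 94 (2.13%). The count varied with a library left out. The 1 gene called when replicate 1 of 30 months was missing was Cxcl13, not Eda2r. At 24 against 3 months, in place of 0, 3 were called without a filter (0.693% of all genes) and 1 with DESeq2 (0.637%). The count was 1 with only the 4 libraries compared (0.243%) and 1 with the set (0.363%), and it varied with a library left out. The log2 fold change of Nfkb2 at 30 against 3 months was 1.26 to 1.5 with a library left out, with an adjusted p of 0.0249 to 0.3204, and it was called in 5 of the 8 such fits. That of Nfkb1, 0.07 in the reported fit, ranged from -0.04 to 0.19 with a library left out, and its sign turned when replicate 1 of 3 months (-0.04) or of 30 months (-0.01) was missing. The cause of these differences was not tested. Where a library is left out, the lone library of its age is assumed to vary like those of the other ages.

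The correlation of deviations between same-numbered libraries ranged from -0.357 to 0.262 over 6 pairs of ages, and 3 were positive. Replicate 1 has kidney transcripts at 12 and 24 months, a pair of ages with 0.262. At 30 months replicate 2 has them, and the values were -0.357 with 12 months and -0.302 with 24 months. The check is thus mixed with the set and cannot decide whether the replicate numbers pair the libraries. With the replicate block, Nfkb2 had the same log2 fold change at 30 against 3 months, 1.39, with an adjusted p of 0.0687. The count of members called was 0 and that of other pathway genes 0 with the block in that comparison, beside 0.0664% of all genes. Nfkbie, with 28 and 38 counts at 3 months, has the fewest counts of the members there.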
